A study of Mus musculus with 6 samples.

Results

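The 49 genes described here encode the route by which a heart takes up glucose, breaks it down to pyruvate and lactate, passes pyruvate into mitochondria and oxidises it in the citric acid cycle. They were picked from the 78409 rows of the deposited table by gene name and not by measured level, though earlier results of these data were known. The list covers glucose transporters, glycolytic enzymes and their regulators, lactate dehydrogenase, glycogen enzymes, the pyruvate carrier, the pyruvate dehydrogenase complex and its kinases, cycle enzymes, ketone-body enzymes and the aspartate aminotransferases. All 49 had a row, all 49 passed the filter on low values, which asked for 1 CPM (read count scaled to a common library total) or more in 3 or more libraries, and the lowest deposited count of any of them in any heart was 37. Hearts of 11-month-old mice labelled Ybx1cmKO, a knockout of Ybx1 in cardiomyocytes (3 hearts), were set against hearts of littermates labelled Control (3 hearts). Ybx1 encodes a nucleic acid-binding protein with a cold-shock domain. The sources used here do not give the driver that removes the gene in cardiomyocytes, the alleles that the controls carry or the sex of the mice. The tissue is labelled as heart, with no chamber named.

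Glycolysis splits glucose in the cytosol and yields pyruvate, which is reduced to lactate or carried into mitochondria. There the pyruvate dehydrogenase complex turns it into acetyl-CoA, which citrate synthase feeds into the citric acid cycle together with acetyl-CoA from fatty acids and ketone bodies. The adult heart draws most of its energy from fatty acids and can shift towards glucose and ketone bodies under load. Muscle expresses its own isoforms of several glycolytic enzymes. In bulk tissue, fewer cells of a type and less RNA per cell cannot be told apart.

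Ybx1 itself was at 203, 171 and 109.7 CPM in knockout hearts 1, 2 and 3, against 849, 810.2 and 895 CPM in control hearts 1, 2 and 3, with a log2 fold change of -2.40 (edgeR adjusted p = 0.148), so all 3 knockout hearts were below the control hearts. Libraries held 12270796 to 15141525 counts. The library of knockout heart 3 stood apart in its composition. Mitochondrial rRNA took 24.4, 21.7 and 10.7% of the counts in knockout hearts 1, 2 and 3, against 24.5, 26.3 and 20.5% in control hearts 1, 2 and 3 (Wilson 95% interval of at most ± 0.024 percentage points, counting error only). The nuclear RNA Malat1 was at 6166, 3318 and 668 deposited CPM in the knockout hearts, against 4411, 7923 and 3317 deposited CPM in the control hearts. The 7 cardiomyocyte markers summed to 16030.1 to 21196 CPM in knockout hearts and 18725 to 22544 CPM in control hearts. Of 8 skeletal muscle markers 1 passed the filter, and they summed to 2.44 to 3.21 CPM in knockout hearts and 1.84 to 2.18 CPM in control hearts. The 4 adipocyte markers, of which 1 passed the filter, summed to 0.454 to 3.49 CPM in knockout hearts and 0.461 to 3.17 CPM in control hearts. The 4 erythroid markers summed to 2532 to 4549 CPM in knockout hearts and 2146 to 3363 CPM in control hearts. The 6 fibroblast markers summed to 714 to 884 CPM in knockout hearts and 602 to 702 CPM in control hearts. The 4 macrophage markers summed to 53.0 to 59.1 CPM in knockout hearts and 38.1 to 49.1 CPM in control hearts. Both sums, and the low sum of the skeletal muscle markers, were higher in every knockout heart than in any control heart. The 4 atrial markers summed to 94.0 to 308 CPM in knockout hearts and 124 to 383 CPM in control hearts, and the 4 smooth muscle and pericyte markers to 387 to 661 CPM in knockout hearts and 487 to 598 CPM in control hearts.

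No transcript of the list passed the test between genotypes, and hearts of the same genotype were far apart. Of the 49 genes, 0 passed a Benjamini-Hochberg adjusted p of 0.05 over all 13717 tested genes in edgeR's quasi-likelihood test, where 0% of all genes did, and the lowest adjusted p among them was 0.694. At an unadjusted p below 0.05 there were also 0 of the 49, where 5.14% of all tested genes fell below it (2.69% higher and 2.45% lower in knockout). DESeq2 also called 0 of the 49 at an adjusted p of 0.05 (0.109% of all genes) and 0 at an unadjusted p below 0.05 (5.08%). Limma-trend likewise gave 0 of the 49 at either threshold (4.32% of all genes at the unadjusted one). These p-values set the difference between genotypes against the spread between hearts of the same genotype, with 3 hearts a group. The log2 fold changes, knockout over control, ran from -0.51 for Pfkfb2 to 1.09 for Mdh1, with 31 genes above 0 (63.3%, beside 51.1% of all tested genes) and 18 below 0. Their median was 0.15, beside 0.01 for all tested genes. For 29 of the 49 genes (59.2%) the 95% confidence interval lay within 2-fold either way, beside 63.5% of all tested genes. For the other 20 the interval reached beyond 2-fold in at least 1 direction.

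These counts rested on the choice of hearts. Without knockout heart 1, 12 of the 49 genes had an unadjusted edgeR p below 0.05 (24.5%, beside 12.7% of all tested genes). Of these, 11 were higher in knockout, where 7.52% of all genes were: Dlat, Pdk1, Mdh1, Dld, Sucla2, Mpc1, Mpc2, Ldhb, Idh2, Pfkm and Pgk1. Pfkfb1 was lower. None of the 12 passed after adjustment, with a lowest edgeR adjusted p of 0.381. Without knockout heart 2 there was 1 gene, Pfkfb2 (6.45% of all genes). Without knockout heart 3 there were 0 (3.86% of all genes), and likewise without control heart 1 (2.8%), 2 (1.46%) or 3 (5.19%). With no filter on low values there were 7 (7.48% of 33251 genes), of which Mdh1 passed after adjustment (0.4% of them). Without knockout heart 3 the median log2 fold change was -0.06, with 15 of the 49 genes above 0.

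**Figure D1:**
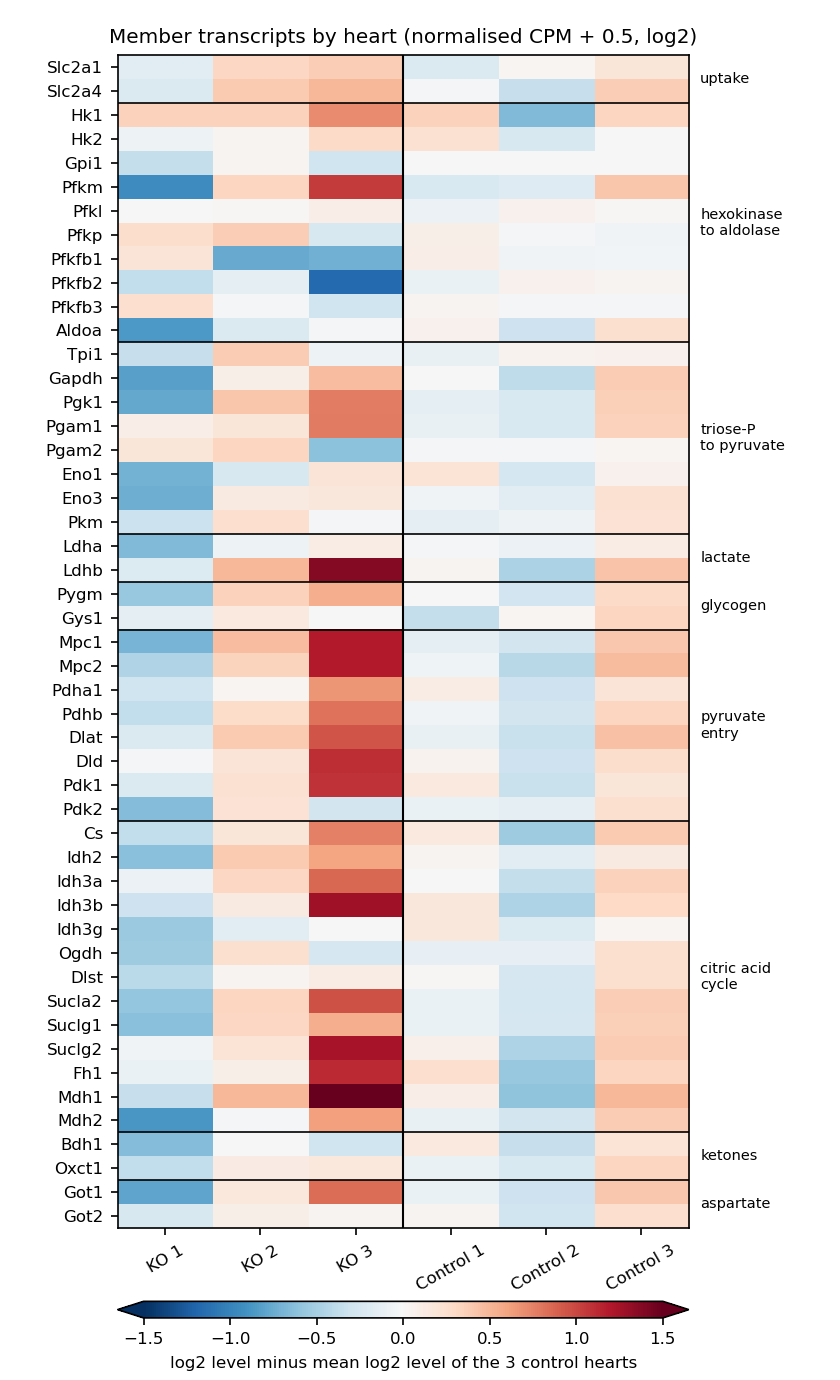
Level of each of the 49 transcripts in each heart, as log2(normalised CPM + 0.5) minus the mean of the 3 control hearts, with genes in rows by role and hearts in columns. Knockout heart 1 is mostly blue (low) and knockout heart 3 mostly red (high) in the rows of pyruvate entry and the citric acid cycle, and control hearts 2 and 3 differ in the same directions by less.

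Levels per kb of exon, which allow a rough comparison of genes, spanned a wide range. The ranks are approximate, because exon lengths come from GENCODE M21 and the annotation behind the counts is not given. They also depend on the division by length. The cDNA was primed by oligo(dT), and whether reads cover transcripts evenly was not tested. Some genes also share sequence with others, as Ldhb does in 27.0% of its windows of 50 bases. Pgam2 was highest, at 509 CPM per kb in knockout and 503 CPM per kb in control hearts, and Mdh2 next, at 390.0 CPM per kb in knockout and 389 CPM per kb in control hearts. Ldhb was at 315 CPM per kb in knockout and 199 CPM per kb in control hearts, Idh2 at 295 CPM per kb in knockout and 257 CPM per kb in control hearts, Eno3 at 198 CPM per kb in knockout and 212 CPM per kb in control hearts and Oxct1 at 198 CPM per kb in knockout and 203 CPM per kb in control hearts. These 6 genes, which encode muscle and heart forms of glycolytic enzymes and enzymes of the mitochondrion, had the highest means per kb in control hearts. Pgam2 has only 0.84 kb of exon. Without division by length it averaged 422 CPM in control hearts, below Ogdh (746 CPM), Oxct1 (715 CPM), Mdh2 (566 CPM) and Idh2 (448 CPM). Pfkfb3, a regulator of phosphofructokinase activity known from proliferating cells, was lowest, at 0.623 CPM per kb in knockout and 0.624 CPM per kb in control hearts. 

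Many of the genes varied in the same direction from heart to heart. Their summed level was 5853, 9028 and 11113 normalised CPM in knockout hearts 1, 2 and 3, against 7775, 6702 and 9467 normalised CPM in control hearts 1, 2 and 3. The sums of the control hearts thus lay between those of knockout hearts 1 and 3. Knockout heart 3 held the highest of the 6 values for 29 of the 49 genes (59.2%, beside 33.9% of all tested genes). Knockout heart 1 held the lowest value for 25 (51.0%, beside 15.4%). Among the control hearts, heart 2 held the lowest of the 6 values for 16 genes (32.7%, beside 25.2%) and heart 3 for 0. In 35 of the 49 genes (71.4%) the knockout hearts ran in the order 1, 2, 3 from low to high, beside 25.8% of all tested genes. The control hearts also shared an order: in 34 of the 49 genes (69.4%) heart 2 was the lowest and heart 3 the highest, beside 24.2% of all tested genes. The highest knockout value was a median of 1.95 times the lowest over the 49 genes, and the highest control value 1.49 times the lowest, beside 1.59 and 1.38 times over all tested genes. Malat1 ran the other way: knockout heart 1 had the highest and knockout heart 3 the lowest level among knockout hearts, and control heart 2 the highest among control hearts. The 5 endothelial markers summed to 408, 232 and 195 CPM in knockout hearts 1, 2 and 3, against 323, 288 and 251 CPM in control hearts 1, 2 and 3. They were highest in knockout heart 1, where the listed genes were lowest. The fibroblast, smooth muscle and pericyte, macrophage and erythroid sums were also highest there. Among control hearts the endothelial markers were highest in heart 1, while the listed genes were lowest in heart 2. The cardiomyocyte markers summed to 16030.1, 20222 and 21196 CPM in knockout hearts 1, 2 and 3, against 21873, 18725 and 22544 CPM in control hearts 1, 2 and 3. The part of library or cell composition in these differences was not tested.

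The order of the hearts was clearest in the mitochondrial part of the pathway. For the 20 genes of mitochondrial enzymes of pyruvate entry and the cycle, which leaves out cytosolic Mdh1, the median difference from the control mean, on the log2 scale, was -0.39, 0.22 and 0.84 in knockout hearts 1, 2 and 3, against 0.02, -0.29 and 0.32 in control hearts 1, 2 and 3. For the 22 genes from glucose uptake to lactate it was -0.27, 0.16 and 0.14 in knockout hearts 1, 2 and 3, against -0.02, -0.13 and 0.15 in control hearts 1, 2 and 3. By these medians knockout hearts 1 and 2 were on the same side in both parts. The median of knockout heart 3 was high in the mitochondrial part and near those of the control hearts in the glycolytic part. Single glycolytic genes ran both ways in knockout heart 3, with Ldhb at 1.38 and Pfkm at 1.05, against Pfkfb2 at -1.16 and Pgam2 at -0.62. The median log2 fold change was 0.32 for the mitochondrial part, with 16 of 20 genes above 0, and 0.02 for the glycolytic part, with 12 of 22 above 0. Without knockout heart 3 these medians were -0.07, with 4 of 20 genes above 0, and -0.02, with 10 of 22. Without knockout heart 1 they were 0.57 and 0.13. Leaving out knockout heart 3 thus reversed the direction of the mitochondrial part, and leaving out knockout heart 1 kept it and made it larger.

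**Figure D2:**
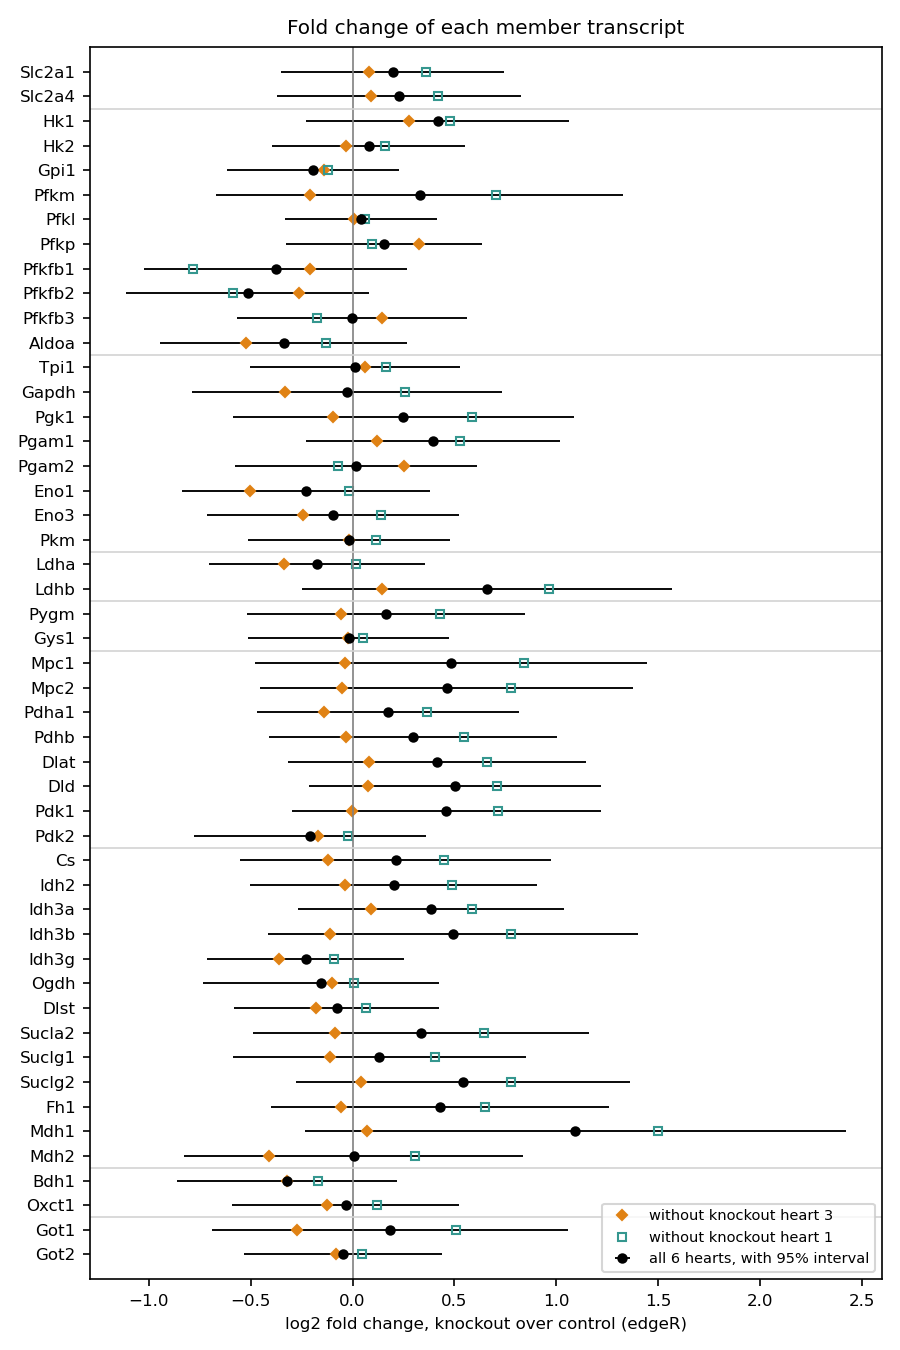
Log2 fold change of each of the 49 transcripts, knockout over control, with its 95% interval in all 6 hearts (black) and the value without knockout heart 3 (diamonds) or without knockout heart 1 (open squares). Every black interval crosses 0, and for Mdh1 the value is 1.09 with all hearts and 0.07 without knockout heart 3.

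Both glucose transporters overlapped between the genotypes. Slc2a4 encodes GLUT4, the insulin-responsive transporter of muscle and fat, and was at 103, 157 and 169 normalised CPM in knockout hearts 1, 2 and 3, against 117, 94.1 and 155 normalised CPM in control hearts 1, 2 and 3. Knockout heart 3 was highest and control heart 2 lowest, and the log2 fold change was 0.23 (SE 0.26, interval -0.37 to 0.83). Slc2a1 encodes GLUT1, the transporter of basal uptake, and was at 4.34, 6.28 and 6.54 CPM in the knockout hearts, against 4.19, 5.07 and 5.69 CPM in the control hearts, with a log2 fold change of 0.20. Per kb of exon, the level of Slc2a4 was 50.9 CPM per kb in knockout and 43.4 CPM per kb in control hearts, and that of Slc2a1 was 1.75 CPM per kb in knockout and 1.53 CPM per kb in control hearts.

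Hexokinase traps glucose in the cell as glucose phosphate. Hk2, the insulin-regulated form of muscle, was at 180.4, 196 and 233 normalised CPM in knockout hearts 1, 2 and 3, against 224, 161 and 192 normalised CPM in control hearts 1, 2 and 3, with a log2 fold change of 0.08 (SE 0.21, interval -0.39 to 0.55). Its groups overlapped. Hk1, the form found in most tissues, was at 20.2, 20.04 and 26.1 CPM in the knockout hearts, against 20.1, 9.76 and 19.7 CPM in the control hearts, where control heart 2 was below the other 5 hearts. Its log2 fold change was 0.42, and 0.14 without control heart 2. Gpi1, which interconverts glucose and fructose phosphates, had a log2 fold change of -0.20, and its value in knockout heart 2, 121 CPM, was above all 3 control values.

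Phosphofructokinase catalyses the committed step of glycolysis. Pfkm, its muscle subunit, had the largest ratio of highest to lowest heart, 4.02, of the glycolytic enzymes upstream of pyruvate. It was at 65.4, 159 and 263 normalised CPM in knockout hearts 1, 2 and 3, against 108, 110.4 and 169 normalised CPM in control hearts 1, 2 and 3. The control values lay inside the span of the knockout values, and the log2 fold change was 0.33 (SE 0.44, interval -0.67 to 1.33), or -0.21 without knockout heart 3. The liver-type and platelet-type subunits, Pfkl and Pfkp, had log2 fold changes of 0.04 and 0.15. Per kb of exon, Pfkm made up 70.0%, 84.5% and 90.9% of the summed level of the 3 subunits in knockout hearts 1, 2 and 3, against 80.7%, 80.3% and 86.5% in control hearts 1, 2 and 3.

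Pfkfb2 was the single gene of the 49 whose groups did not overlap. It encodes the heart form of the bifunctional enzyme that makes and degrades the sugar bisphosphate that activates phosphofructokinase. Its level was 24.7, 28.9 and 14.1 normalised CPM in knockout hearts 1, 2 and 3, against 30, 33.5 and 32.9 normalised CPM in control hearts 1, 2 and 3. All 3 knockout values lay below all 3 control values, with means of 22.5 ± 7.63 CPM in knockout and 32.2 ± 1.89 CPM in control hearts (SD, n = 3 each). The log2 fold change was -0.51 (SE 0.26, interval -1.11 to 0.08), with an unadjusted p of 0.0828 and an edgeR adjusted p of 0.694, and it was -0.26 without knockout heart 3. Among all tested genes 12.1% had groups that did not overlap, 5.82% with knockout below control, so 1 of 49 (2.04%) is under the background. The groups of Pfkfb2 overlapped when counts were scaled by library totals alone. Pfkfb1, a related enzyme known best from liver and skeletal muscle, was at 13.2, 6.58 and 6.76 CPM in the knockout hearts, against 12.3, 11.1 and 11.1 CPM in the control hearts. Its knockout hearts 2 and 3 were low and knockout heart 1 was above the controls, and the log2 fold change was -0.38. Pfkfb3 was at 2.72 to 4.20 CPM over the 6 hearts.

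**Figure D3:**
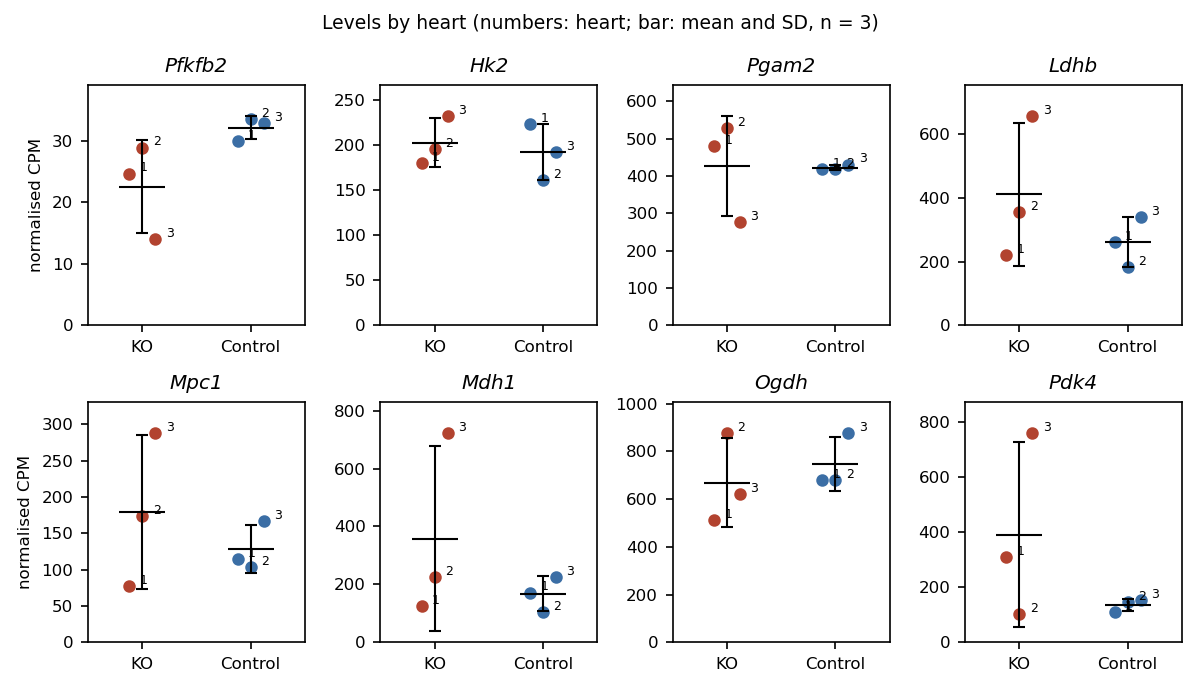
Normalised CPM of 8 transcripts in each heart, with the knockout hearts on the left of each panel and the control hearts on the right. Numbers give the heart, and bars the mean and SD of 3 hearts. In Ldhb, Mpc1, Mdh1 and Pdk4 knockout heart 3 is above every other heart, in Pgam2 it is below every other heart, and in Pfkfb2 all 3 knockout hearts are below all 3 control hearts.

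Aldolase and the enzymes below it gave no difference past the spread between hearts. Aldoa, the aldolase of muscle, was at 164, 256 and 295 normalised CPM in knockout hearts 1, 2 and 3, against 311, 240.1 and 352 normalised CPM in control hearts 1, 2 and 3. Control heart 2 was below knockout hearts 2 and 3, so the groups overlapped, and the log2 fold change was -0.34 (SE 0.27, interval -0.94 to 0.27). Pgam2, the muscle phosphoglycerate mutase, was at 479, 527 and 276 CPM in the knockout hearts, against 418, 419 and 431 CPM in the control hearts. The control hearts were within 1.03-fold of each other, and the knockout hearts lay on both sides of them, with heart 3 low. Its log2 fold change was 0.02 (SE 0.26, interval -0.58 to 0.61), and 0.25 without knockout heart 3.

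Eno3, the muscle enolase, was at 199, 363 and 370.4 CPM in the knockout hearts, against 317, 293 and 386 CPM in the control hearts, and its log2 fold change was -0.10 (SE 0.27, interval -0.72 to 0.52). Knockout heart 1 was below all other hearts, and knockout hearts 2 and 3 were inside the control range. Pkm, pyruvate kinase, was at 187, 279 and 232 CPM in the knockout hearts, against 214, 222 and 272 CPM in the control hearts, with a log2 fold change of -0.02 (SE 0.22, interval -0.52 to 0.48). Pgam1 and Eno1, the mutase and enolase of other tissues, had log2 fold changes of 0.39 and -0.23. Tpi1 and Pgk1, the triose phosphate isomerase and phosphoglycerate kinase of the same segment, had log2 fold changes of 0.01 and 0.25 (Pgk1 at -0.10 without knockout heart 3). Gapdh, often used as a reference gene, was at 33.8, 63.9 and 83.0 CPM in the knockout hearts, against 60.1, 45.8 and 78.4 CPM in the control hearts. It spanned 2.46-fold among knockout hearts and 1.71-fold among control hearts.

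Levels of several of these enzymes are uncertain because other genes carry the same sequence. In the GENCODE M21 transcripts, 82.5% of the windows of 50 bases in the longest coding transcript of Gapdh also occur exactly in a transcript of another gene, with 215 annotated pseudogenes among them. The share was 72.2% for Eno1, 67.96% for Pgk1, 47.2% for Got2, 41.5% for Pgam1 and 34.4% for Pkm. It was above 10% for 17 of the 49 genes. The deposited counts held a fraction of a read for 30 of the 49 genes in at least 1 library. Eno1 has a near-identical copy, Eno1b, which held 83.8, 99.3 and 168 deposited counts in knockout hearts 1, 2 and 3, against 114, 70.1 and 130 in control hearts 1, 2 and 3. For Pfkfb2 the share was 25.1%, all of it with 1 other annotated gene, Gm29427. Mdh1, Mpc2, Idh2, Eno3, Pgam2 and Slc2a4 shared no window.

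Lactate dehydrogenase links pyruvate and lactate, and its subunits differ by tissue. Ldhb, the heart-type subunit, was at 219, 357 and 657 normalised CPM in knockout hearts 1, 2 and 3, against 260.2, 181 and 339 normalised CPM in control hearts 1, 2 and 3. Knockout hearts 2 and 3 were above the highest control value, and knockout heart 1 lay inside the control range. Its log2 fold change was 0.66 (SE 0.40, interval -0.25 to 1.57), and 0.15 without knockout heart 3. Ldha, the muscle-type subunit, was at 122, 184 and 208 CPM in the knockout hearts, against 191, 181 and 209 CPM in the control hearts, with a log2 fold change of -0.17 (SE 0.23, interval -0.70 to 0.35). The ratio of Ldhb to Ldha within a heart was 1.79, 1.94 and 3.16 in knockout hearts 1, 2 and 3, against 1.36, 1.00 and 1.62 in control hearts 1, 2 and 3. All 3 knockout ratios were above all 3 control ratios, with means of 2.30 ± 0.749 in knockout and 1.33 ± 0.314 in control hearts (SD, n = 3 each). The share of 50-base windows found in other genes was 27.0% for Ldhb and 16.6% for Ldha.

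Ratios of this kind were computed for 9 pairs of related enzymes, chosen after the levels had been seen, and are given as a description. An exact permutation test gave no p below 0.1, the smallest it can give with 3 hearts a group. The groups did not overlap in 2 of the 9, Ldhb to Ldha and Mdh1 to Mdh2, where 12.1% of all single genes did not, so nothing is read from that count. The log2 difference in the Ldhb to Ldha ratio, knockout minus control, was 0.77, and 0.52 without knockout heart 3. The ratio of Hk2 to Hk1 was 8.94, 9.79 and 8.92 in knockout hearts 1, 2 and 3, against 11.1, 16.5 and 9.75 in control hearts 1, 2 and 3. Its groups overlapped by a small margin, between knockout heart 2 and control heart 3. The ratio of Slc2a4 to Slc2a1 was 24.8 ± 1.08 in knockout and 24.6 ± 5.18 in control hearts (SD, n = 3 each). The ratio of Pgam2 to Pgam1 was 84.1, 87.2 and 29.2 in knockout hearts 1, 2 and 3, against 86.4, 94.7 and 63.2 in control hearts 1, 2 and 3, with knockout heart 3 below the other 5 hearts.

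**Figure D4:**
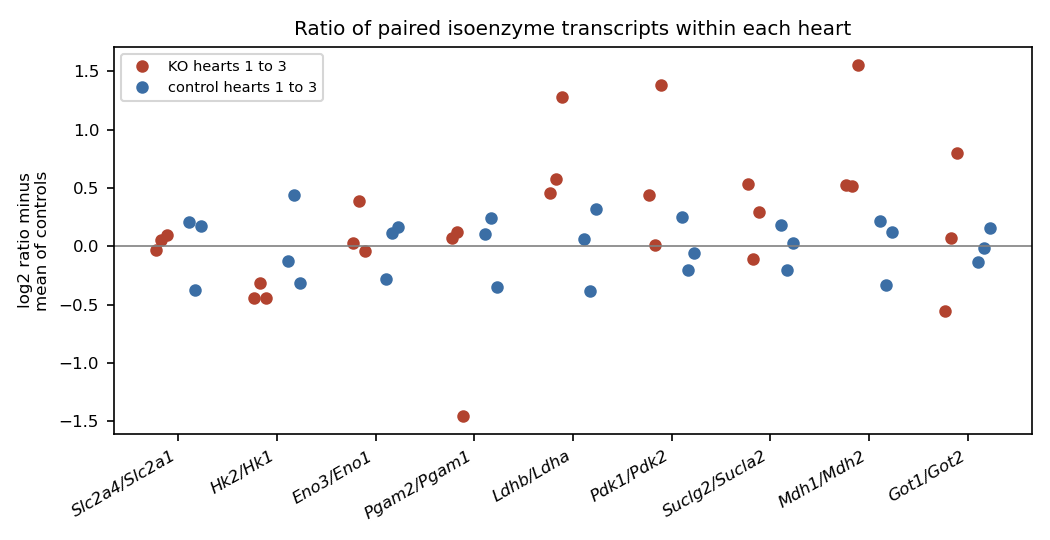
Ratio of the transcripts of 9 enzyme pairs within each heart, on the log2 scale, minus the mean of the 3 control hearts. Knockout hearts (red) are drawn left of control hearts (blue) in each pair, with hearts 1 to 3 from left to right. The groups do not overlap for Ldhb/Ldha and Mdh1/Mdh2, and knockout heart 3 is the highest point in both.

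Glycogen is the glucose store of muscle. Pygm, the muscle phosphorylase that releases glucose phosphate from it, was at 76.5, 144 and 165 CPM in the knockout hearts, against 114, 92.4 and 138 CPM in the control hearts. The log2 fold change was 0.16 (SE 0.30, interval -0.52 to 0.85), with knockout heart 1 low and knockout heart 3 high. Gys1, the muscle glycogen synthase, was at 13.7, 16.9 and 15.2 CPM in the knockout hearts, against 11.8, 15.5 and 19.1 CPM in the control hearts, with a log2 fold change of -0.02.

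Pyruvate enters mitochondria through a carrier made of Mpc1 and Mpc2. Mpc1 was at 77.3, 173 and 288 normalised CPM in knockout hearts 1, 2 and 3, against 115, 104 and 167 normalised CPM in control hearts 1, 2 and 3, with a log2 fold change of 0.48 (SE 0.42, interval -0.48 to 1.45). Mpc2 was at 90.5, 157 and 283 CPM in the knockout hearts, against 119, 93.0 and 173 CPM in the control hearts, with a log2 fold change of 0.46 (SE 0.40, interval -0.45 to 1.38). In both partners knockout heart 1 was the lowest and knockout heart 3 the highest of the 6 hearts. Without knockout heart 3 their log2 fold changes were -0.04 and -0.05. Mpc1 shared 29.6% of its windows of 50 bases with other genes.

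The pyruvate dehydrogenase complex holds a decarboxylase (Pdha1 and Pdhb), an acetyltransferase (Dlat) and a dihydrolipoyl dehydrogenase (Dld). Pdha1 was at 221, 279 and 433 normalised CPM in knockout hearts 1, 2 and 3, against 295, 219 and 313 normalised CPM in control hearts 1, 2 and 3, with a log2 fold change of 0.17 (SE 0.28, interval -0.47 to 0.81). Pdhb, Dlat and Dld had log2 fold changes of 0.30, 0.42 and 0.50, which were -0.03, 0.08 and 0.07 without knockout heart 3. Kinases switch the complex off by phosphorylation. Pdk2, the kinase found in most tissues, was at 36.7, 67.5 and 47.9 CPM in the knockout hearts, against 54.0, 52.7 and 68.9 CPM in the control hearts, with a log2 fold change of -0.21 (SE 0.25, interval -0.78 to 0.36). Pdk1 was at 16.1, 22.01 and 40.4 CPM in the knockout hearts, against 20.8, 14.8 and 21.4 CPM in the control hearts, with knockout heart 3 above the other 5 hearts. Of the 8 genes of pyruvate entry, 7 lay above 0 with all hearts and 2 without knockout heart 3.

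Cs, citrate synthase, opens the citric acid cycle and is widely used as a marker of mitochondrial content. Its level was 223, 326 and 486 normalised CPM in knockout hearts 1, 2 and 3, against 317, 198 and 378 normalised CPM in control hearts 1, 2 and 3. The control hearts spanned 1.91-fold and the knockout hearts 2.18-fold, and the log2 fold change was 0.21 (SE 0.34, interval -0.55 to 0.98). Idh2, the NADP-dependent mitochondrial isocitrate dehydrogenase, was at 289, 585 and 671 CPM in the knockout hearts, against 458, 397 and 488 CPM in the control hearts, with a log2 fold change of 0.20 (SE 0.31, interval -0.50 to 0.91). Knockout heart 1 was below and knockout hearts 2 and 3 above the control range. The NAD-dependent enzyme has subunits Idh3a, Idh3b and Idh3g, and their log2 fold changes were 0.38, 0.49 and -0.23. Idh3g thus had the opposite sign to its partners, and without knockout heart 3 the values were 0.09, -0.11 and -0.36.

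Ogdh, which with Dlst and Dld forms the 2-oxoglutarate dehydrogenase complex, was at 513, 877 and 621 normalised CPM in knockout hearts 1, 2 and 3, against 681, 681 and 877 normalised CPM in control hearts 1, 2 and 3. Its highest knockout and control values were almost equal, and the log2 fold change was -0.16 (SE 0.26, interval -0.74 to 0.43). The shared subunit Dld was highest in knockout heart 3, at 151 CPM, while Ogdh was below all 3 control values there. Dlst had a log2 fold change of -0.08. The succinyl-CoA ligase subunits Sucla2, Suclg1 and Suclg2 had log2 fold changes of 0.34, 0.13 and 0.54, and fumarase, Fh1, of 0.43. In these 4 genes knockout heart 3 had the highest of the 6 values. Of the 12 genes of mitochondrial cycle enzymes, Mdh2 included, 9 lay above 0 with all hearts and 2 without knockout heart 3.

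Mdh1 had the largest fold change of the 49 genes, and it rested on a single heart. It encodes the cytosolic malate dehydrogenase of the malate-aspartate shuttle, which carries reducing equivalents into mitochondria. Its level was 126, 227 and 722 normalised CPM in knockout hearts 1, 2 and 3, against 172, 105 and 226 normalised CPM in control hearts 1, 2 and 3. Knockout heart 3 was 5.75 times knockout heart 1, and knockout heart 2 was level with control heart 3. The log2 fold change was 1.09 (SE 0.58, interval -0.24 to 2.42), with an unadjusted p of 0.0952 and an edgeR adjusted p of 0.694. It was 0.07 without knockout heart 3 and 1.499 without knockout heart 1. Among the 13 alternatives the edgeR fit with no filter on low values was the only one to call Mdh1 (edgeR adjusted p = 0.0121). Mdh2, the mitochondrial enzyme of the cycle, was at 302, 550.4 and 851 normalised CPM in knockout hearts 1, 2 and 3, against 515, 460.1 and 722 normalised CPM in control hearts 1, 2 and 3. Its log2 fold change was 0.01 (SE 0.37, interval -0.83 to 0.84), and -0.41 without knockout heart 3.

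The ratio of Mdh1 to Mdh2 was 0.416, 0.412 and 0.848 in knockout hearts 1, 2 and 3, against 0.334, 0.228 and 0.313 in control hearts 1, 2 and 3. The knockout ratios lay above all control ratios, also in knockout hearts 1 and 2, where the log2 difference from the control hearts was 0.52. The aminotransferases of the shuttle were not apart in this way. Got1, the cytosolic aspartate aminotransferase, was at 98.4, 190.4 and 304 CPM in the knockout hearts, against 159, 137 and 226 CPM in the control hearts, and Got2, its mitochondrial counterpart, at 177, 222 and 214 CPM in the knockout hearts, against 215, 169.9 and 249 CPM in the control hearts. The ratio of Got1 to Got2 was 0.557, 0.857 and 1.42 in knockout hearts 1, 2 and 3, against 0.741, 0.806 and 0.909 in control hearts 1, 2 and 3, and the control ratios lay inside the span of the knockout ratios.

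The upstream sequences of the genes with the largest fold changes and a single annotated start, Mdh1 and Ldhb, are given because YBX1 was named for binding the Y-box, an inverted CCAAT element of promoters. Each is the 250 bases before the start of the gene in RefSeq on GRCm38.p6, 5′ to 3′ on the strand of the gene, with CCAAT in capitals. The deposited counts were made on another build, mm39. The window of Mdh1 is chr11:21571935-21572184 on the minus strand, and that of Ldhb is chr6:142507958-142508207 on the minus strand.
Mdh1: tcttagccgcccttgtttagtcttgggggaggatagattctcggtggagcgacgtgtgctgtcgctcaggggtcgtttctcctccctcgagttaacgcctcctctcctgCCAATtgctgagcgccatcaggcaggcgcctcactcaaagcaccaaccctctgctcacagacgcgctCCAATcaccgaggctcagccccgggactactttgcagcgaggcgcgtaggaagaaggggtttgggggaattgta
Ldhb: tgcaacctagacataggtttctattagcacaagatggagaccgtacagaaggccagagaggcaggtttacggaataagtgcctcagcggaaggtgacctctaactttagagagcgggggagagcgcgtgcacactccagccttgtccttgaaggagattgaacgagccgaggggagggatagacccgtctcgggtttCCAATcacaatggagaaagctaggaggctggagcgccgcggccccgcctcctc
The window of Mdh1 holds CCAAT 2 times and that of Ldhb 1 time. Neither holds ATTGG, the inverted form, on the strand of the gene. The letters CCAAT or, on the other strand, ATTGG occurred upstream of at least 1 start in 25 of the 47 listed genes with a sequence (53.2%), beside 37.5% of the 27025 genes in the same RefSeq table. A match of these letters is a description of the sequence and says nothing of binding.

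Ketone bodies enter the cycle through Bdh1 and Oxct1. Oxct1, which activates acetoacetate, was at 544, 767 and 785 normalised CPM in knockout hearts 1, 2 and 3, against 659, 603 and 882 normalised CPM in control hearts 1, 2 and 3, with a log2 fold change of -0.03 (SE 0.24, interval -0.59 to 0.52). Its groups overlapped over most of their range. Bdh1, the dehydrogenase of hydroxybutyrate, was at 18.2, 28.9 and 23.4 CPM in the knockout hearts, against 31.9, 22.6 and 33.5 CPM in the control hearts, with a log2 fold change of -0.32 (SE 0.24, interval -0.86 to 0.22). Control heart 2 alone kept the groups from separating.

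Of 70 further genes of glycolysis, glycogen, pyruvate and cycle enzymes, the pentose phosphate pathway, shuttles and ketone bodies, 64 were tested and 0 passed edgeR's test over all genes, as in DESeq2 and limma-trend. With no filter on low values 1 of them passed, Pdk4 (0.4% of all genes), and 9 had an unadjusted p below 0.05 (7.48%). At an unadjusted edgeR p below 0.05 there were 4 of the 64 (6.25%), all higher in knockout, beside 5.14% of all tested genes in either direction and 2.69% higher. These were Pdk3, Ugp2, Pdk4 and Gaa, of which Pdk3 passed the filter on low values only through the knockout hearts. There were also 4 by DESeq2 (5.08% of all genes). Without knockout heart 3 there were 4 (3.86% of all genes), Pdk3, Bpgm, Phkg1 and Pgd, so Ugp2, Pdk4 and Gaa were no longer among them. Without knockout heart 1 there were 11 (17.2% of the 64, beside 12.7% of all genes). Over the 64 genes the median log2 fold change was 0.21, with 48 above and 16 below 0, and 0.07 without knockout heart 3. Groups did not overlap in 5 of the 64 (7.81%), all higher in knockout, beside 6.26% of all genes in that direction. These were Ugp2, Pygl, Pdk3, G6pdx and Pgd. The place of Pdk3 in these counts is partly fixed by the filter, so nothing is read from it.

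Pdk4, the pyruvate dehydrogenase kinase induced by fasting and fatty acids, was at 312, 103 and 761 normalised CPM in knockout hearts 1, 2 and 3, against 111, 145 and 153 normalised CPM in control hearts 1, 2 and 3. Knockout hearts 1 and 3 were above and knockout heart 2 below every control heart. The log2 fold change was 1.52 (SE 0.59, interval 0.19 to 2.85), with an edgeR adjusted p of 0.694, and it was 0.60 without knockout heart 3. Ugp2, which makes UDP-glucose for glycogen, was at 74.3, 101 and 120.1 CPM in the knockout hearts, against 68.5, 48.5 and 71.8 CPM in the control hearts. Its groups did not overlap, and the log2 fold change was 0.65 (SE 0.24, interval 0.09 to 1.20), or 0.48 without knockout heart 3 (edgeR adjusted p = 0.694 with all hearts). Gaa, the acid glucosidase that degrades glycogen in lysosomes, was at 32.0, 50.9 and 59.3 CPM in the knockout hearts, against 33.3, 27.0 and 34.7 CPM in the control hearts, with a log2 fold change of 0.58. Pdk3, a further kinase of the complex, averaged 1.58 ± 0.392 CPM in knockout and 0.681 ± 0.212 CPM in control hearts (SD, n = 3 each), levels near the filter of 1 CPM. It was above 1 CPM in every knockout heart and below 1 CPM in every control heart. A gene that passes the filter in this way can only come out as higher in knockout.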

How the data were processed

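Total RNA of 6 mouse hearts was sequenced, with cDNA primed by anchored oligo(dT), tagmented and amplified, per the labels' protocols. The submitters' processing notes name STAR 2.7.11, SAMtools 1.22.1, featureCounts, Subread 2.1.1, edgeR 4.0.16 and the build mm39, with no role for each. The sources used here do not give the annotation release or the strand and multi-mapping settings. The deposited table holds estimated counts, some with fractions of a read, and the authors' CPM per library.

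Counts were rounded to whole numbers and tested with edgeR 4.0.16 (R 4.3.3; quasi-likelihood, TMM scaling) over the 13717 genes that reached 1 CPM in 3 or more libraries. Adjusted p-values are Benjamini-Hochberg over all of them, and intervals are 95%. Printed CPM are normalised by TMM factors on total counts, unless called deposited. Alternatives were DESeq2 1.42.0, limma-trend (limma 3.58.1) on log2(CPM + 0.5), other scalings, no filter, a replicate block and leaving out each heart. The fits were tested on simulated data. No pair of libraries in a group agreed within sampling noise (chi-square over its degrees of freedom of 13.8 or more). Exon lengths and shared windows come from GENCODE M21 on GRCm38, for lengths and sequence identity only. The genes and lists were chosen with earlier results of these data known. Values by heart are given for listed genes with an unadjusted p below 0.05, for those whose groups do not overlap, for 20 genes fixed by role, and for Pfkfb1, Mdh1, Mdh2, Mpc1, Mpc2, Pdk1, Gys1, Got1 and Got2, which were added after their values were seen.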

Additional observations from a re-analysis of the deposited data

How the results depend on the processing

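Of the 49 genes, 0 passed the adjusted threshold in the main analysis and in 12 of 13 alternatives; without a filter on low values 1 did (Mdh1, where 0.4% of 33251 genes passed). At an unadjusted p below 0.05 there were 0 in the main analysis, 7 without the filter (7.48% of all genes there), 2 with the replicate block (Mdh1 and Pfkfb2, beside 13.2% of all genes) and 0 to 12 when a heart was left out. The 12 came without knockout heart 1 (24.5% of the 49, beside 12.7% of all genes; 11 higher, among them Dlat, Pdk1, Mdh1 and Mpc1, and Pfkfb1 lower), and Pfkfb2 was the 1 without knockout heart 2. Groups did not overlap in 1 gene in the main analysis, in 0 with library totals only and with limma-trend on the CPM, and in 2 to 11 when a heart was left out (15.7% to 32.3% of all genes). The median log2 fold change was 0.15, and 0.14 to 0.29 in the alternatives without the block, 0.08 with it, and -0.06 (without knockout heart 3) to 0.36 (without knockout heart 1) when a heart was left out. Library totals only and limma-trend shifted the median of all genes to 0.17 and 0.14, so 0.29 and 0.24 there are 0.12 and 0.10 above it. Without the filter the median of all genes was -0.06, so 0.17 there is 0.23 above it. In the main analysis the median of the 49 genes was 0.14 above that of all genes. Without knockout heart 3, 18 of the 49 genes changed sign and 19 moved by more than their standard error.

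Deviations of hearts with the same number correlated at -0.11, 0.45 and 0.58. Knockout heart 1 correlated best with control heart 2 (0.57), and knockout hearts 2 and 3 with the control heart of their own number. Deviations from a mean of 3 hearts are bound to each other, so this cannot decide whether the numbers mark pairs. The main analysis did not treat the hearts as pairs. With 3 hearts a group, 20 of the 49 intervals reach beyond 2-fold, each in a single direction. This was lower in knockout for Pfkfb1 and Pfkfb2 and higher for the others. Changes of that size in that direction could not be resolved in those genes.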
